A study of Rattus norvegicus with 12 samples.

Results

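The respiratory chain genes described here were all genes on the array whose symbol starts with Nduf, Sdh, Uqcr, Cox4, Cox5, Cox6, Cox7, Cox8 or Atp5, without the assembly factors Sdhaf and Ndufaf. A total of 89 probe sets carried exactly 1 such symbol and gave 80 genes, out of 14217 genes and 31042 probe sets tested. By symbol prefix, 36 genes belong to complex I, 4 to complex II, 7 to complex III, 17 to complex IV and 16 to complex V. Ndufa4 and Ndufa4l2 were counted with complex I by their prefix, although the Ndufa4 protein is found with complex IV. Cox6c-ps1 is a pseudogene, and Atp5if1 is an inhibitor of complex V. The mitochondrially encoded subunits do not fall under these prefixes.

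The respiratory chain sits in the inner mitochondrial membrane. Complex I takes electrons from NADH and complex II from succinate, and both hand them to ubiquinone. Complex III passes them on to cytochrome c, and complex IV transfers them to oxygen. Complexes I, III and IV pump protons, and complex V (ATP synthase) uses the returning protons to make ATP. Neurons depend on this supply to restore ion gradients after synaptic activity, and most subunits are made in all cells with mitochondria, while a few complex IV subunits have an additional isoform restricted to muscle, testis or lung.

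Hippocampal slices 350 µm thick from Wistar rats at postnatal day 7 were cultured at 33 °C with 4 slices on an insert, and all groups were collected at day 26 in vitro. The 7B12 group received a monoclonal antibody raised against amino acids 763 to 820 of rat Nogo-A, a myelin and neuronal membrane protein that restricts neurite growth. The 11C7 group received an antibody against amino acids 623 to 640 of the same protein. The IgG group received a control monoclonal antibody against wheat auxin. The NT group was left untreated. All 3 antibodies were used at 3 µg/ml. Exposure began on day 21 and lasted 5 days, and the medium was renewed every 2 days. Each group had 3 arrays numbered 1 to 3, from separate cultures of different animals, and each array pooled RNA from 24 cultures. A slice holds neurons, glia and other cells, so each value is an average over all of them. Neither the labels nor the values say which cells a transcript came from.

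Values are the authors' ratios of a probe set's signal to its own reference, taken here as log2 less the median of the array and averaged over a gene's probe sets. A value near 0 is therefore the usual level of a gene in these arrays, and levels cannot be compared between genes. In 3 of the 89 probe sets, those of Cox7b2, Cox8b and 1 of Atp5if1, the median ratio lay below 1, so their values sit lower. For the same reason the presence of the tissue's defining markers could not be checked. The 6 NT and IgG arrays together served as controls. Genes were compared with limma across all 14217 genes, and a gene was called at a Benjamini-Hochberg adjusted p below 0.05.

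Respiratory chain transcripts varied little. The median over the 80 genes lay between -0.10 and 0.14 on the log2 scale in all 12 arrays, with the lowest value in NT replicate 1 and the highest in NT replicate 2. In 7B12 cultures this median was -0.02, 0.01 and 0.08 in replicates 1 to 3. In 11C7 cultures it was 0.12, 0.13 and 0.02, in IgG cultures 0.02, 0.09 and 0.05, and in NT cultures -0.10, 0.14 and 0.05. The groups overlapped throughout.

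**Figure D1:**
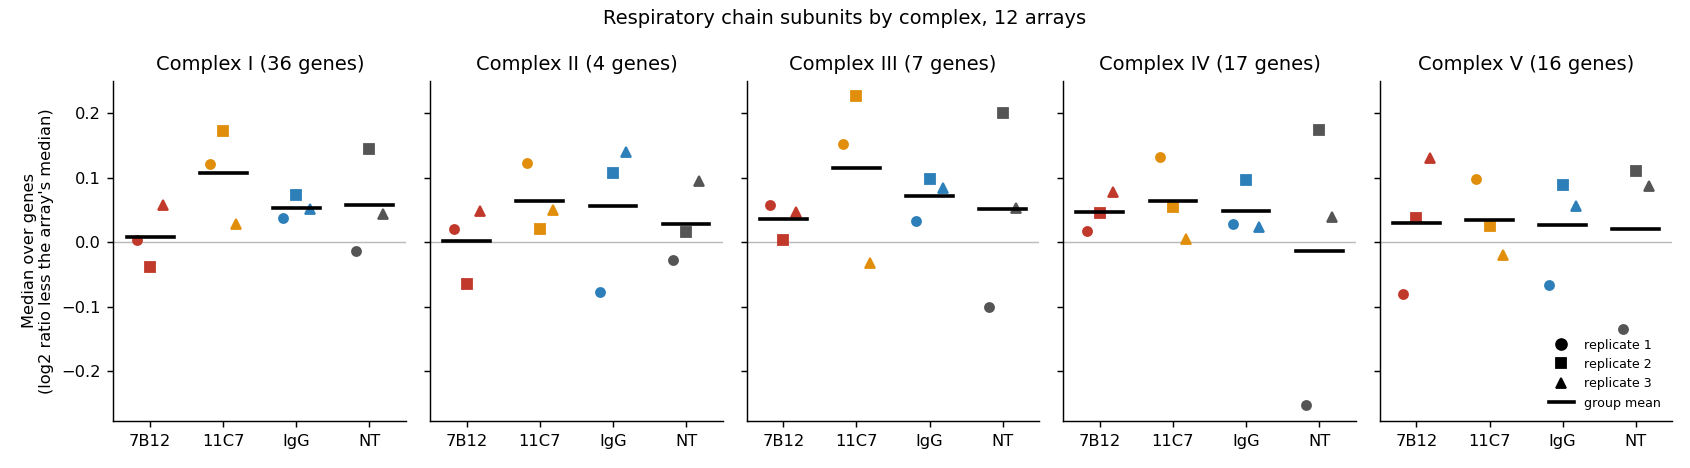
Median log2 value of the genes of each complex (vertical axis, log2 ratio less the median of the array) in each array, by group (horizontal axis). Symbols mark replicates and bars the group means. Values of the 4 groups overlap in every panel, and the lowest point is complex IV in NT replicate 1 at -0.25.

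The spread of a single gene around its group mean was also small. The median within-group SD was 0.18 for the respiratory chain genes and 0.39 for all genes, and 67 of the 80 genes lay below the median of all genes. Constitutive proteasome subunits, another set of housekeeping transcripts, had a median SD of 0.18, and cytosolic ribosomal proteins 0.24. Cox6b1, the widely expressed form of complex IV subunit 6B, had the lowest SD of the 80 at 0.06. Cox6a2, the heart and skeletal muscle form of subunit 6A, had the highest at 1.31.

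7B12 against the NT and IgG controls asked whether blocking Nogo-A with this antibody shifted the respiratory chain. No respiratory chain gene passed the threshold, against 0% of all genes (limma, adjusted p). A total of 37 of 80 genes were above 0, with a median change of -0.01, while 52.1% of all genes were above 0 with a median of 0.01. An unadjusted p below 0.05 was found for 2 genes, or 2.5%, against 6.05% of all genes. The 95% interval of the change stayed within 1.5-fold for 65 of the 80 genes and within 2-fold for 72, against 30.7% and 59.0% of all genes. Within each replicate number, the median change was 0.04, -0.11 and 0.02 for numbers 1, 2 and 3.

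In complex I, 10 of 36 genes were above 0, with a median of -0.05. The 6 measured core subunits, most of which carry the flavin and the iron-sulfur clusters, were all below 0, between -0.15 and -0.01, and none had an unadjusted p below 0.05. The complex II median was -0.08 with 1 of 4 genes above 0, and the complex III median was -0.06 with 3 of 7. Complexes IV and V were above 0 in 12 of 17 and 11 of 16 genes, with medians of 0.02 for each. Single arrays moved these values. The complex IV median was -0.035 without NT replicate 1, and the complex V median was -0.024 without 7B12 replicate 3. The complex II median was -0.022 without 7B12 replicate 1, and the complex III median was -0.0096 without NT replicate 2.

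**Figure D2:**
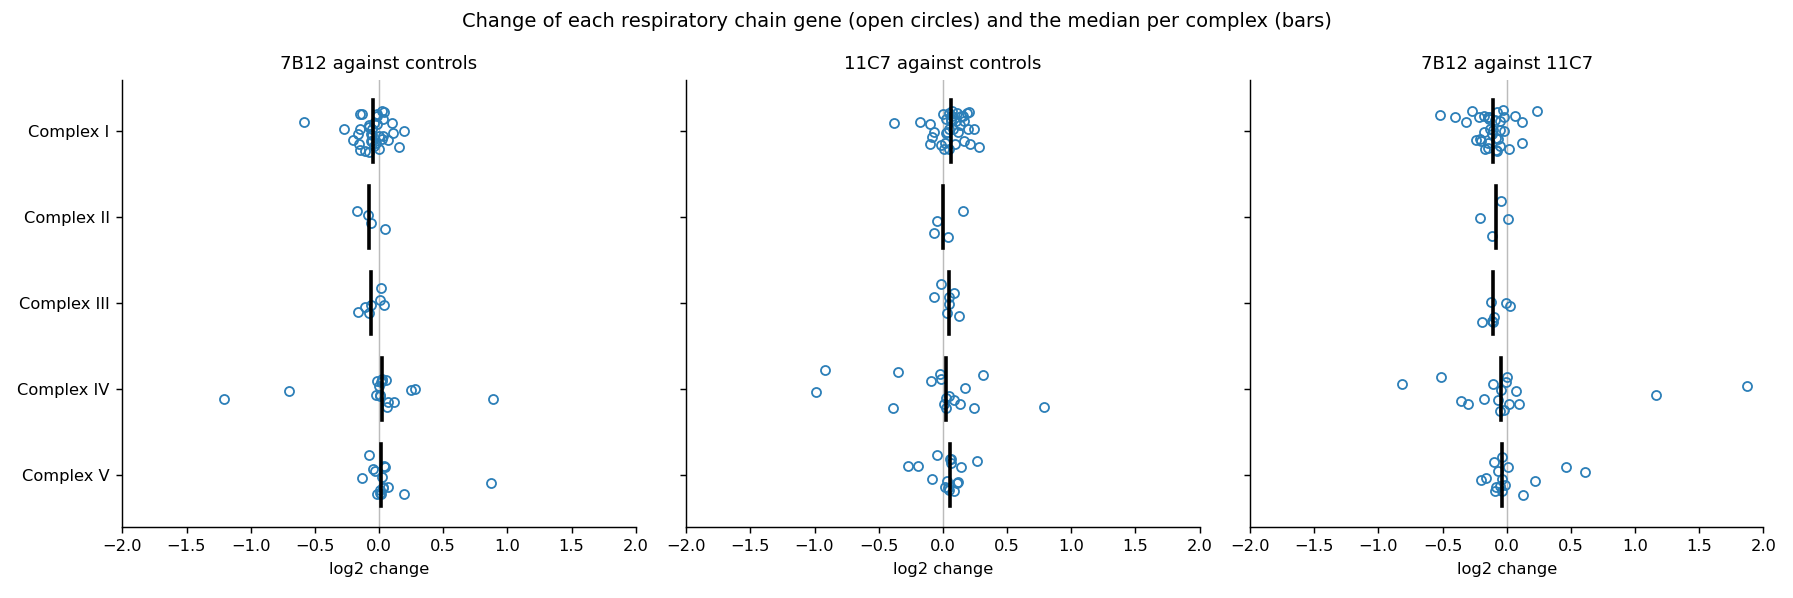
Log2 change of each respiratory chain gene (open circles) and the median of each complex (black bars) for 7B12 and 11C7 against the NT and IgG controls and for 7B12 against 11C7. Most circles lie near 0, no gene passed the threshold, and the widest changes belong to complex IV.

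Single subunits of the smaller complexes showed how narrow these changes were. In complex II, Sdha and Sdhb, which carry the flavin and the iron-sulfur clusters, had a difference of -0.06 ± 0.15 and -0.09 ± 0.12 (SE) in 7B12 cultures, and by -0.07 ± 0.15 and -0.04 ± 0.12 in 11C7 cultures. Sdhd, a membrane anchor, had a difference of 0.04 ± 0.13 and 0.16 ± 0.13. In complex III, Uqcrfs1, the Rieske iron-sulfur protein, had a difference of 0.01 ± 0.14 and -0.01 ± 0.14, and Uqcrc1, a core subunit, by 0.04 ± 0.11 for each antibody. In complex V, the catalytic subunit Atp5f1b had a difference of 0.05 ± 0.15 and -0.08 ± 0.15, and Atp5f1c, the central rotor subunit gamma, by -0.03 ± 0.18 and 0.07 ± 0.18. The peripheral stalk subunits Atp5pb, Atp5pd, Atp5pf and Atp5po lay at 0.02, 0.00, 0.07 and 0.19 for 7B12 and at 0.06, 0.09, 0.14 and -0.27 for 11C7. Atp5po averages 2 probe sets, of which 1 read -2.38 in NT replicate 3 and -1.02 and -1.82 in 11C7 replicates 2 and 3. Every interval of these genes covered 0.

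Cox6b2, the form of complex IV subunit 6B known from testis, was the only respiratory chain gene whose 7B12 values all lay below all 6 control values, as did 1.08% of all genes. Its values in replicates 1 to 3 were -0.05, -1.06 and -1.62 in 7B12 cultures, 0.38, -0.21 and -0.45 in 11C7 cultures, 0.10, 0.10 and 0.54 in IgG cultures and 0.54, 0.46 and 0.04 in NT cultures. The 7B12 arrays were low, with replicate 1 only just under the lowest control. The change was -1.21 ± 0.33 (SE, n = 3 against 6) with an adjusted p of 0.489, so it did not pass. Within numbers 1, 2 and 3 it was -0.38, -1.34 and -1.91. Without 7B12 replicate 3 it was -0.85. The ratios do not show whether the Cox6b2 signal lay above background.

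Cox6b1, the widely expressed partner, read 0.02, -0.04 and 0.08 in 7B12 cultures, 0.04, 0.07 and 0.02 in 11C7 cultures, -0.03, -0.02 and 0.06 in IgG cultures and -0.07, 0.10 and 0.06 in NT cultures. All groups overlapped within a narrow band. Upstream sequence is shown for this pair because the paralogs differ so much in spread. It is also shown for 4 genes that differed between replicate numbers (described further on). These 4 were picked without a stated rule and do not stand for the called genes. The sequences run from 250 bases before to 50 after the RefSeq start on GRCr8, and 72 of the 80 genes matched the table by symbol. Capitals mark letters of 3 motifs searched on both strands: GCATGCGC for NRF1, CCGGAAGT for the ETS factor GABP and AAGATGGC for YY1, which are regulators known to act at respiratory chain promoters.
Cox6b2 (chr1:78122621-78122920, plus strand): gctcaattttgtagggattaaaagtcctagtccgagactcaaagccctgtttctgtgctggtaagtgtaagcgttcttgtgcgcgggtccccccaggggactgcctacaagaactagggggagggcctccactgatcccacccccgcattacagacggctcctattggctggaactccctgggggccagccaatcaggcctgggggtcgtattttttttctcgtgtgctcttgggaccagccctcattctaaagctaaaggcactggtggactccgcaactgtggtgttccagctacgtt
Cox6b1 (chr1:95009803-95010102, minus strand): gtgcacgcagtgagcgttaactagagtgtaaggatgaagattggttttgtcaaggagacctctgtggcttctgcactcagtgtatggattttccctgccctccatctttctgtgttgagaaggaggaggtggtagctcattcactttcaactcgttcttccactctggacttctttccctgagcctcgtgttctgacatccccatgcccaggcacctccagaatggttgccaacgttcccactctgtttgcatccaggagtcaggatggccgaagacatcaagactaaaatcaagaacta
Atp5f1e (chr3:183680123-183680422, minus strand): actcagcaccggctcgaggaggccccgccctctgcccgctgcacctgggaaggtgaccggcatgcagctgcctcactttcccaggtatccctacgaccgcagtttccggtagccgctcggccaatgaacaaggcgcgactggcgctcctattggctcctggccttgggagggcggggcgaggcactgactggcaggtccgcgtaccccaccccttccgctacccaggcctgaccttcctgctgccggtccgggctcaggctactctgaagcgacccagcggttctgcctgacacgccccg
Ndufb8 (chr1:253362887-253363186, minus strand): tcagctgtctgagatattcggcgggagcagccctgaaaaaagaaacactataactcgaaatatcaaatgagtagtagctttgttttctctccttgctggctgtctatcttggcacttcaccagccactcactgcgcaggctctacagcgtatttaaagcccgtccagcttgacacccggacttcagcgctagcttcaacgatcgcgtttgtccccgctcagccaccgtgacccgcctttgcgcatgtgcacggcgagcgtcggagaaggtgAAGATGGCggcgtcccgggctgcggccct
Atp5f1a (chr18:73567287-73567586, plus strand): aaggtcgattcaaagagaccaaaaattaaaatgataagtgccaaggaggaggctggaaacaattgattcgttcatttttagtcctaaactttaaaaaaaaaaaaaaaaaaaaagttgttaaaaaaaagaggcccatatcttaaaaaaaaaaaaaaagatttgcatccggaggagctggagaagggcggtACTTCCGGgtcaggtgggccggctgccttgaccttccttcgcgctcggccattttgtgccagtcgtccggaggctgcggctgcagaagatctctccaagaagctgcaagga
Ndufa13 (chr16:19560276-19560575, plus strand): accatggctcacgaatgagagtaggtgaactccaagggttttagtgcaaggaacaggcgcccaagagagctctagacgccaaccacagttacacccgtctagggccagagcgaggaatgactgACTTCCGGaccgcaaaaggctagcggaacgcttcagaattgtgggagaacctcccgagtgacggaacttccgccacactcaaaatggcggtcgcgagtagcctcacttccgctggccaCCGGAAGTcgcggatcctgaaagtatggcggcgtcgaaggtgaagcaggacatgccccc
None of the 3 letter strings was found in the windows of Cox6b2, Cox6b1 or Atp5f1e. Ndufb8 held the YY1 string at position 22 after the start, Atp5f1a the ETS string at -61 on the minus strand of the window, and Ndufa13 the ETS string at -127 on the minus strand and -9 on the plus strand. A hit on the minus strand reads as ACTTCCGG. Across the matched genes the YY1 string was found in 16 of 72 windows (22.2%), against 3.17% of 33469 rat promoters. The ETS string was in 8 (11.1%, against 3.81%) and the NRF1 string in 7 (9.72%, against 2.47%). At least 1 of the strings was in 26 windows (36.1%, against 8.84%). The 72 genes gave 1 window each, while the 33469 were all full-length promoters, not limited to the genes tested. Other widely expressed genes were not compared. The YY1 string contains ATG, and these windows include the first transcribed bases.

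Atp5if1, which blocks ATP hydrolysis by complex V, had the second smallest p in 7B12 cultures. Its values were 0.06, 0.33 and 0.37 in 7B12 cultures, 0.10, 0.01 and -1.17 in 11C7 cultures, -0.54, -1.19 and -1.31 in IgG cultures and -0.52, -0.34 and 0.17 in NT cultures. The 7B12 arrays were high, but NT replicate 3 lay among them. The change was 0.87 ± 0.31 (SE, n = 3 against 6), with an adjusted p of 0.649. Its 3 probe sets disagreed. They gave 0.14 ± 0.16, 0.49 ± 0.32 and 1.99 ± 1.01, and the last read between -3.53 and -4.43 on IgG replicates 2 and 3. Without probe sets of a low median the change was 0.31.

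The other genes with the smallest p for 7B12 had intervals that covered 0. Ndufb2 and Ndufa9, accessory subunits of complex I, had a difference of -0.27 ± 0.18 and -0.20 ± 0.15 (SE). The probe sets of Ndufa9 gave -0.02 ± 0.13 and -0.38 ± 0.26, and without 7B12 replicate 1 the gene stood at -0.081. Sdhc, a membrane anchor of complex II, had a difference of -0.17 ± 0.12, which was -0.077 without 7B12 replicate 2 and -0.27 without 7B12 replicate 1. Ndufa6 and Ndufa5, also complex I accessory subunits, had a difference of 0.20 ± 0.15 and 0.16 ± 0.15.

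Marker lists of other cell types and processes stood on both sides of 0 on the same arrays. The inflammatory genes had a median change of 1.61 in 7B12 cultures with 27 of 28 above 0, and 23 microglia and macrophage markers a median of 0.43 with 19 above 0. None passed the threshold after adjustment (limma). An unadjusted p below 0.05 was found for 21 of the inflammatory genes and 9 of the microglia markers, against 6.05% of all genes. The lists were chosen with earlier results of these data known, so these counts are no test of them. The myelin markers had a median of -0.23 with 4 of 19 above 0, the astrocyte markers -0.11 with 5 of 17 and the neuron markers 0.02 with 14 of 27. The respiratory chain median on those arrays was the -0.01 given above. In a bulk sample, fewer cells of a type and less RNA per cell cannot be told apart. The part of these lists in any single respiratory chain value was not tested.

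**Figure D3:**
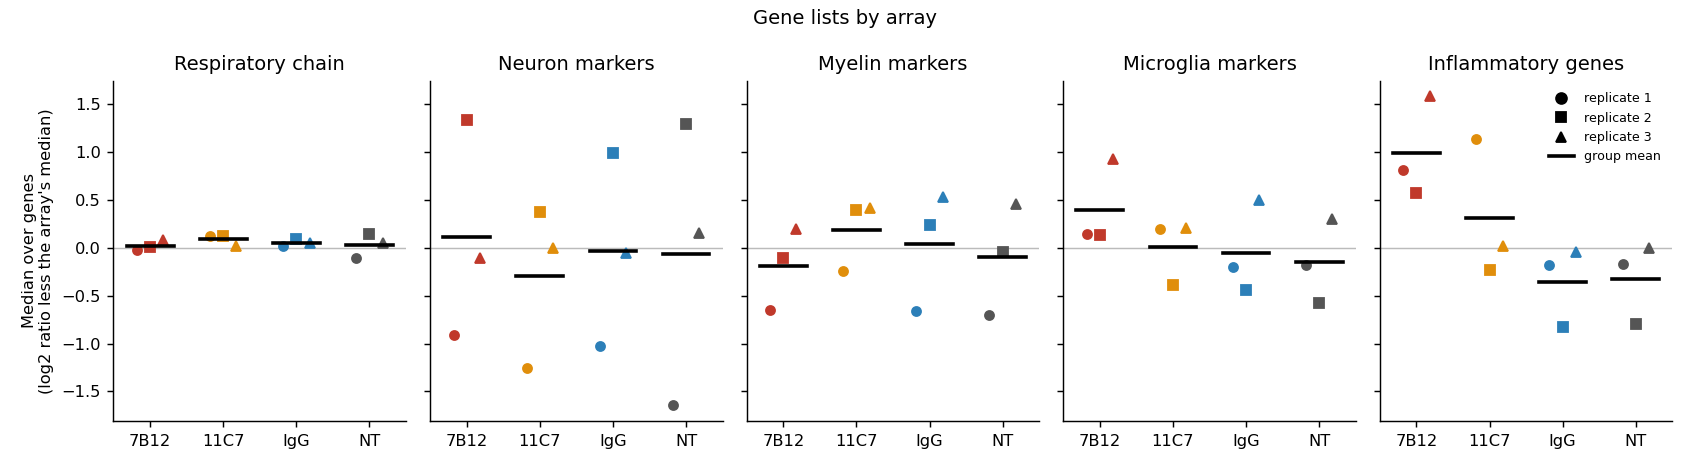
Median log2 value of the respiratory chain genes and of 4 marker lists (vertical axis, log2 ratio less the median of the array) in each array, by group (horizontal axis). Respiratory chain medians stay between -0.10 and 0.14, while neuron markers range from -1.65 to 1.34 and inflammatory genes from -0.83 to 1.58.

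11C7 against the same controls also gave no call among the 80 genes, against 0% of all genes. In total 57 of 80 genes were above 0 with a median of 0.05, while 56.1% of all genes were above 0 with a median of 0.03. The median of the 80 was 0.020 without 11C7 replicate 2 and 0.088 without 11C7 replicate 3. No gene had an unadjusted p below 0.05, against 2.99% of all genes. The interval stayed within 1.5-fold for 63 of the 80. Complex I was above 0 in 28 of 36 genes (median 0.07), complex III in 5 of 7 (0.04), complex IV in 10 of 17 (0.02) and complex V in 12 of 16 (0.05). Complex II had 2 of 4 above 0 and a median of 0.00. Within replicate numbers 1, 2 and 3 the median change was 0.18, 0.06 and -0.05, with the controls of the same number as the base. The sign differed between the numbers.

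The smallest p values for 11C7 belonged to Ndufa2 (0.28 ± 0.17, SE) and Ndufs6 (0.20 ± 0.13), accessory subunits of complex I. Without 11C7 replicate 1 Ndufa2 stood at 0.13, and without 11C7 replicate 3 at 0.45. Without 11C7 replicate 2 Ndufs6 stood at 0.11. Cox8b, the muscle form of complex IV subunit 8 in rodents, had 11C7 values that all lay below the controls, as did 0.788% of all genes. Its values were -2.47, -2.68 and 0.85 in 7B12 cultures, -2.88, -3.47 and -3.57 in 11C7 cultures, -2.79, -2.82 and -1.81 in IgG cultures and -2.45, -2.05 and -2.0 in NT cultures. Replicate 1 of 11C7 lay only just under the lowest control. The median ratio of its only probe set was 0.16, far below 1. The change was -0.99 ± 0.68 with an interval that covered 0. With the 6 arrays of both antibodies against the 6 controls, 45 of 80 genes were above 0, and the median was 0.02 for these genes and for all genes. None was called, against 0% of all genes, and 2 had an unadjusted p below 0.05, against 4.89%. No gene of the 80 had all 6 antibody values above all controls, against 0.127% of all genes, or all below, against 0.0914%.

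7B12 against 11C7 compared the antibodies directly. Among the 80 genes, 18 were above 0, with a median of -0.08. The median of all genes was -0.01, so more of them were below 0 than above. Complex I (5 of 36 above 0, median -0.11) and complex III (1 of 7, median -0.11) had the lowest medians. These medians depended on single arrays. The median of all 80 was -0.030 without 7B12 replicate 1 and -0.13 without 11C7 replicate 3. The complex III median was -0.061 without 7B12 replicate 1 and -0.17 without 11C7 replicate 3. The complex I median was -0.17 without 11C7 replicate 3 and also -0.17 without the array centring. No gene was called, against 0% of all genes. An unadjusted p below 0.05 was found for 1 gene, against 3.69%. In the same comparison the myelin markers had a median of -0.40 with 0 of 19 above 0, and the neuron markers 0.18 with 23 of 27 above 0. The microglia and macrophage markers stood at 0.40 with 17 of 23 above 0, and the inflammatory genes at 0.92 with 27 of 28. These lists were chosen with earlier results of these data known, and their part in the respiratory chain values was not tested.

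That gene was Cox8b, at 1.87 ± 0.79 (SE, n = 3 each). Its 7B12 values did not overlap with 11C7, as for 3.72% of all genes. Replicate 3 of 7B12 read 0.85, and without it the difference was 0.73. Ndufb2, Ndufs6 and Cox8a, the widely expressed form of subunit 8, were lower in all 7B12 arrays than in any 11C7 array, as were 3.43% of all genes. Ndufb2 read -0.19, -0.23 and -0.08 in 7B12 cultures, 0.05, 0.71 and -0.05 in 11C7 cultures, 0.22, 0.15 and 0.04 in IgG cultures and -0.12, 0.32 and 0.03 in NT cultures. The 11C7 values ranged widely and the 7B12 values little, and the difference of -0.41 ± 0.21 did not pass. Without 11C7 replicate 2 it was -0.17. Ndufs6 differed by -0.27 ± 0.15 and Ndufb4 by -0.32 ± 0.17.

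IgG against NT asked what a control antibody alone did. Among the 80 genes, 45 were above 0 with a median of 0.02, beside 0.00 for all genes. None was called, against 0% of all genes, and none had an unadjusted p below 0.05, against 1.91%. Cox4i2, the form of complex IV subunit 4 known from lung and raised in low oxygen, and Sdhc were higher in all IgG arrays than in NT arrays, as were 2.24% of all genes. Averaged over its 3 probe sets, Atp5if1 was lower in all of them, as were 1.94%. One probe set read -3.53 and -4.43 in IgG replicates 2 and 3. The others overlapped between the groups. They read -0.19, 0.05 and 0.07 in IgG against -0.25, 0.10 and 0.06 in NT, and -1.19, -0.09 and 0.42 against 0.06, -0.58 and -0.06. Sdhc read 0.08, -0.30 and -0.13 in 7B12 cultures, 0.12, 0.13 and 0.03 in 11C7 cultures, 0.07, 0.08 and 0.13 in IgG cultures and 0.06, -0.04 and 0.04 in NT cultures. The IgG values lay only just above the NT values. Cox4i2 read 0.86, 0.05 and -1.19 in 7B12 cultures, 0.55, -0.49 and 1.19 in 11C7 cultures, 0.80, 0.16 and 0.64 in IgG cultures and -0.31, -3.30 and -0.22 in NT cultures. NT replicate 2 stood far below the other 11 arrays, and the change of 1.81 ± 0.83 (SE, n = 3 each) did not pass. Without that array it was 0.80. The whole-list median turned to -0.06 without NT replicate 1.

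A difference among the 4 groups (limma F test) was not called for any of the 80 genes, against 0% of all genes. Its smallest unadjusted p values were 0.0295 for Cox6b2 and 0.0344 for Atp5if1. The one-way analysis of variance that the study design names, at its own limits of an unadjusted p up to 0.05 and 1.2-fold, picked Cox6b2 alone. It picked 422 of all genes, or 2.97%, and none after adjustment.

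The restricted isoforms included the widest spreads. The 7 measured genes of this kind had a median within-group SD of 0.98, against 0.12 for their 6 widely expressed partners. The ratios do not show how far a signal lay above background. Whether these isoforms were detected in the slices was therefore not checked, and a wide spread may not reflect their transcripts. Besides Cox6b2, Cox8b and Cox4i2 they are Cox6a2, Cox7a1 (the muscle form of subunit 7A), Cox7b2 (the testis form of subunit 7B) and Ndufa4l2, which is raised in low oxygen. Cox6a2 read -0.12, 0.02 and 0.73 in 7B12 cultures, 0.19, 0.60 and -3.65 in 11C7 cultures, 1.16, 0.18 and -0.28 in IgG cultures and -0.25, 0.24 and -1.26 in NT cultures. Its mean in 11C7 cultures was set by replicate 3 at -3.65. Cox7b2 read -2.67, -1.22 and 0.86 in 7B12 cultures, -0.54, -0.96 and -0.46 in 11C7 cultures, -0.23, -0.07 and -0.10 in IgG cultures and -0.72, 0.38 and -1.13 in NT cultures. Its lowest and highest values both came from 7B12 cultures. Cox7a1 was the steadiest of the 7, with an SD of 0.30.

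Ndufa4l2 read 0.18, -0.88 and -0.87 in 7B12 cultures, 0.24, -0.32 and 0.08 in 11C7 cultures, 0.63, 0.03 and -1.37 in IgG cultures and 0.94, -0.16 and 0.32 in NT cultures. The groups overlapped widely. The partners were flat by comparison. Cox4i1 read -0.07, -0.02 and 0.25 in 7B12 cultures, 0.02, 0.04 and 0.03 in 11C7 cultures, -0.17, 0.15 and 0.16 in IgG cultures and -0.21, 0.07 and 0.16 in NT cultures. Cox8a, Cox6a1, Cox7b and Ndufa4 had within-group SDs of 0.09, 0.08, 0.19 and 0.15. No probe set with Cox7a2 as its only symbol was present.

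**Figure D4:**
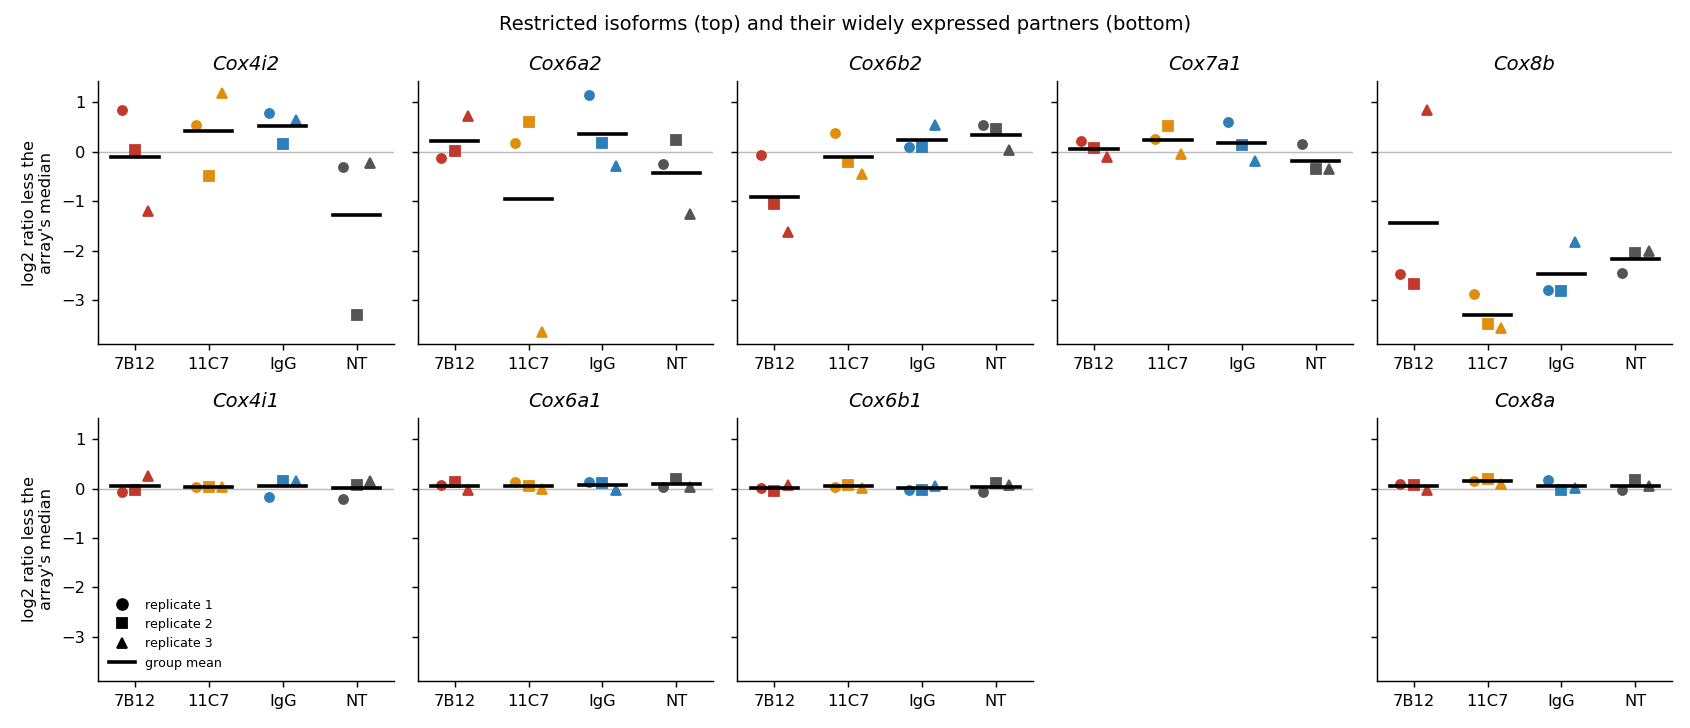
Values of 5 restricted complex IV isoforms (top) and of the widely expressed partner of each where measured (bottom) in every array, as log2 ratio less the median of the array, by group. Symbols mark replicates and bars the group means. The partners stay close to 0, while single arrays of the isoforms reach -3.65 (Cox6a2, 11C7 replicate 3) and -3.57 (Cox8b, 11C7 replicate 3).

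Called genes were found between replicate numbers. A number marks separate cultures of different animals and carries no treatment of its own, and the labels give nothing else that cultures of 1 number share. Each number was compared over its 4 arrays, with the group as a term in the model. Replicate 2 against 1 gave 6 called genes among the 80, against 18.9% of all genes. Of these 5 were higher, against 9.78% of all genes, and 1 was lower, against 9.17%. Replicate 3 against 1 gave 9, against 19% of all genes, with 7 higher, against 9.31%, and 2 lower, against 9.71%. Replicate 3 against 2 gave none of 80 (limma), against 4.23% of all genes, or 1.78% higher and 2.45% lower, with 4 genes at an unadjusted p below 0.05, against 22.1%. The median changes were 0.08, 0.04 and -0.03, beside -0.02, 0.01 and 0.01 for all genes. Values did not overlap for 12 genes higher (12.3% of all genes) and 3 lower (12.5%) in replicate 2 against 1, and for 18 higher (13.9%) and 7 lower (15.3%) in replicate 3 against 1.

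A difference among the 3 numbers (limma F test) was called for 10 of the 80 genes, against 23.6% of all genes. This count was between 0 and 7 when any 1 array was left out.

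The counts of calls changed when single arrays were left out. A fit to fewer arrays also has less power, which was not told apart from the weight of single arrays. The highest counts were 7 (replicate 2 against 1, without 11C7 replicate 1) and 11 (replicate 3 against 1, without 11C7 replicate 2). The count for replicate 2 against 1 was 0 without NT replicate 1, without NT replicate 2 or without IgG replicate 1. It was 1 without IgG replicate 2, 7B12 replicate 1 or 7B12 replicate 2, and 3 without NT replicate 3. The count for replicate 3 against 1 was 1 without NT replicate 1. It was 2 without NT replicate 3, IgG replicate 1, IgG replicate 3 or 7B12 replicate 1, 3 without 7B12 replicate 3 and 4 without 11C7 replicate 3. With only the NT and IgG arrays, no respiratory chain gene was called in either comparison. Without probe sets of a median under 1, replicate 3 against 1 gave 17 calls. The share of all genes called was not counted under any of these settings. A change in the respiratory chain genes therefore cannot be told from a general change in calls.

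Cell type markers moved with the number on a larger scale. The 27 measured neuron markers had a median change of 2.46 in replicate 2 against 1 and of 0.96 in replicate 3 against 1, with 22 and 15 of them called, all higher, against 9.78% and 9.31% of all genes. The array medians of this list were -0.91, -1.26, -1.03 and -1.65 in replicate 1 of 7B12, 11C7, IgG and NT. They were 1.34, 0.37, 1.00 and 1.29 in replicate 2 and -0.10, -0.01, -0.05 and 0.15 in replicate 3. Replicate 1 was thus low in neuron transcripts in every group. Myelin markers had medians of 0.63 and 0.96, and microglia and macrophage markers of -0.29 and 0.52, in the same comparisons. These lists, too, were chosen with earlier results of these data known. The part of these lists in the respiratory chain values was not tested.

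**Figure D5:**
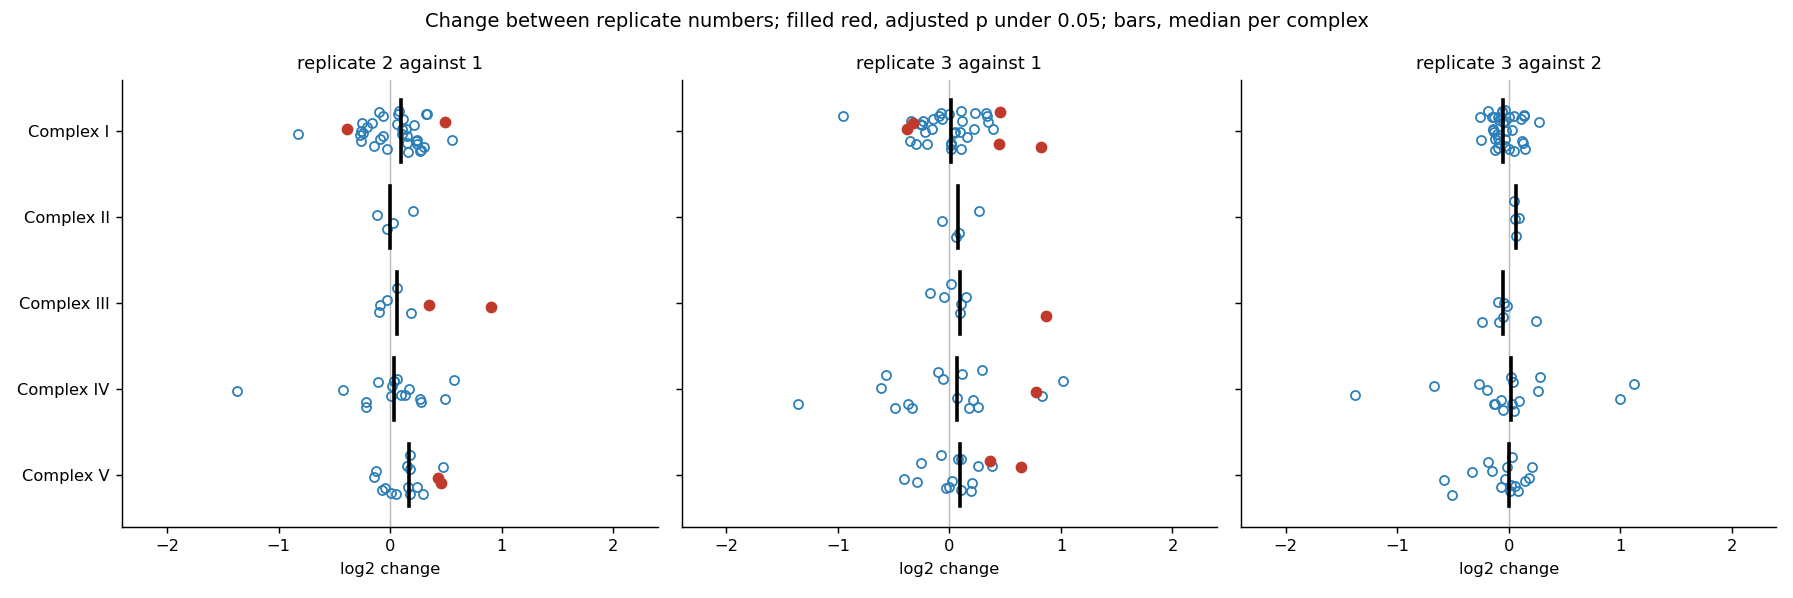
Log2 change of each respiratory chain gene between replicate numbers, by complex. Filled red circles passed an adjusted p of 0.05 and black bars give the median of each complex. There are 6 called genes for replicate 2 against 1, 9 for replicate 3 against 1 and none for replicate 3 against 2.

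The F1 part of ATP synthase, made of the catalytic head and the central stalk, had all its nuclear genes on 1 side of 0. All 5 F1 subunits were above 0 in replicate 2 against 1 (median 0.24) and in replicate 3 against 1 (median 0.37), beside the medians of 0.17 and 0.09 for complex V as a whole. These comparisons share the replicate 1 arrays. Atp5f1e, the epsilon subunit in the central stalk, read 0.30, 0.11, 0.26 and 0.16 in replicate 3, -0.12, 0.04, 0.08 and 0.10 in replicate 2 and -0.39, -0.27, -0.40 and -0.67 in replicate 1 of 7B12, 11C7, IgG and NT. Replicate 1 was lowest in each group. The change was 0.46 ± 0.11 (SE) with an adjusted p of 0.0282 (limma) in replicate 2 against 1. In replicate 3 against 1 it was 0.64 ± 0.11 with an adjusted p of 0.0109.

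Atp5f1a, the alpha subunit, rose by 0.37 ± 0.09 in replicate 3 against 1 with an adjusted p of 0.0282 (limma). The catalytic subunit Atp5f1b had a difference of 0.26 ± 0.11 and Atp5f1c by 0.38 ± 0.11 in that comparison, and neither passed. Atp5mk, a small subunit of the membrane part, rose by 0.43 ± 0.11 in replicate 2 against 1 with an adjusted p of 0.0326 (limma). Of the 4 measured subunits of the peripheral stalk, which holds the head to the membrane, none was called. In replicate 2 against 1, 2 were above 0, and in replicate 3 against 1, 1 was. Among them Atp5po averages 2 probe sets that disagreed. In 1 of them 7B12, 11C7, IgG and NT read -0.28, -0.04, -0.43 and -0.41 in replicate 1 and 0.01, 0.27, 0.33 and 0.08 in replicate 3. In the other they read 0.11, 0.24, 0.28 and 0.05 in replicate 1 and 0.01, -1.82, -0.25 and -2.38 in replicate 3.

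In complex III, Uqcrc2, a core subunit, showed the widest called change. It read 0.19, 0.01, 0.24 and 0.46 in replicate 3, 0.15, -0.06, 0.55 and 0.41 in replicate 2 and -0.81, -0.13, -1.03 and -0.59 in replicate 1 of 7B12, 11C7, IgG and NT. The averaged 11C7 values hardly differed between numbers, while the other 3 groups were low in replicate 1. The 2 probe sets behind the average differed. In 11C7 replicates 1 to 3 they read -0.24, -0.11 and 0.22, and -0.03, -0.02 and -0.20. In replicate 1 of 7B12, IgG and NT they read -0.48, -0.66 and -0.41, and -1.15, -1.41 and -0.76. The change of the gene was 0.90 ± 0.22 (SE, adjusted p 0.0294, limma) in replicate 2 against 1 and 0.87 ± 0.22 (adjusted p 0.0355) in replicate 3 against 1. The other core subunit, Uqcrc1, had a difference of -0.03 ± 0.09 and -0.05 ± 0.09. Uqcr11, a small accessory subunit, rose by 0.35 ± 0.09 in replicate 2 against 1 with an adjusted p of 0.0359, and at 0.0556 it missed the threshold on the values as deposited.

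Complex I held called genes in both directions, all of them accessory subunits. The 6 core subunits had medians of -0.05 in replicate 2 against 1 and -0.03 in replicate 3 against 1. Ndufb8, an accessory subunit of the membrane arm, read 0.27, 0.09, 0.42 and 0.36 in replicate 3, 0.06, -0.60, 0.26 and 0.34 in replicate 2 and -0.62, -0.47, -0.54 and -0.53 in replicate 1 of 7B12, 11C7, IgG and NT. Replicate 1 was low in all groups, and 11C7 replicate 2 was as low. Its change in replicate 3 against 1 was 0.82 ± 0.17 (SE) with an adjusted p of 0.0165 (limma). Ndufb7 (0.45 ± 0.10) and Ndufv3 (0.46 ± 0.11) rose in the same comparison, and Ndufa7 (0.49 ± 0.11) rose in replicate 2 against 1.

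Ndufa13, a complex I subunit also known as GRIM-19 for its link to cell death, went the other way. It read -0.14, -0.06, 0.02 and 0.05 in replicate 3, -0.08, 0.07, -0.04 and -0.10 in replicate 2 and 0.35, 0.36, 0.39 and 0.29 in replicate 1 of 7B12, 11C7, IgG and NT. All 4 replicate 1 arrays lay above all others. The change was -0.38 ± 0.08 (SE) in both comparisons, with adjusted p values of 0.0195 for replicate 2 and 0.0221 for replicate 3 against 1 (limma). Ndufc2, another accessory subunit, fell by 0.33 ± 0.08 in replicate 3 against 1 with an adjusted p of 0.0342.

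Cox5a, a subunit that most cells share in complex IV, was the only called gene of that complex. It read 0.15, 0.37, 0.42 and 0.37 in replicate 3, 0.12, 0.05, 0.22 and -0.19 in replicate 2 and -0.19, -0.56, 0.03 and -1.06 in replicate 1 of 7B12, 11C7, IgG and NT. NT replicate 1 was by far the lowest. The change in replicate 3 against 1 was 0.77 ± 0.18 (SE) with an adjusted p of 0.0259 (limma). A probe set that names Cox5a beside a second symbol, left out of the 80 genes, gave 0.31 ± 0.12 with an adjusted p of 0.132 in that comparison and was not called. No complex II gene was called between any numbers. Between the called lists, Atp5f1e, Uqcrc2 and Ndufa13 were shared, 3 of 6 genes for replicate 2 against 1 and 3 of 9 for replicate 3 against 1. Both comparisons use the same replicate 1 arrays, so some sharing is built in. The sharing over all genes was not counted. Of the 12 genes called in either comparison, 11 had a promoter in the table and 4 of these held a motif. Among all matched respiratory chain genes, 26 of 72 (36.1%) did.

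Genes that build and feed the chain were compared in the same way. None of 43 assembly factors, 15 electron carriers and other subunits, 20 biogenesis regulators, 24 genes of the TCA cycle and pyruvate dehydrogenase, 21 of glycolysis or 35 mitochondrial carriers and import genes was called for 7B12 or 11C7. For 7B12 their medians were 0.01, -0.05, -0.01, -0.08, 0.05 and 0.09. For 11C7 they were 0.06, 0.01, 0.05, -0.04, -0.10 and 0.06. Dmac2l, the coupling factor B of ATP synthase, had the smallest p among the electron carrier list for 7B12, at -0.42 ± 0.13 (SE) and an adjusted p of 0.562 (limma). Ppargc1a, the coactivator PGC-1 alpha that drives mitochondrial biogenesis, had a difference of -0.41 ± 0.25 for 7B12 and -0.36 ± 0.25 for 11C7, and neither passed.

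Called genes of these lists were also found between replicate numbers. All genes were called at 9.31% higher and 9.71% lower in replicate 3 against 1. In replicate 3 against 1, 5 of 43 assembly factors were higher and 4 lower, and of 24 genes in the TCA and pyruvate dehydrogenase list 3 were higher and 3 lower. Of 21 glycolysis genes 5 were higher and 2 lower, and of 35 carrier and import genes 8 were higher and 1 lower. For the electron carrier and biogenesis lists no counts are given here, so genes named from them do not stand for their list. Cyc1, the cytochrome c1 of complex III, rose by 0.49 ± 0.09 (SE) with an adjusted p of 0.0126 (limma). Pdk4, a kinase that shuts off pyruvate dehydrogenase, fell by 1.5 ± 0.12 with an adjusted p of 0.00324, and Pc, pyruvate carboxylase, fell by 1.14 ± 0.15. Pprc1, a coactivator related to PGC-1, rose by 0.53 ± 0.12. In replicate 2 against 1, Eno2 and Slc2a3, the enolase and the glucose transporter of neurons, rose by 1.35 ± 0.17 and 1.72 ± 0.27, beside the neuron marker median of 2.46. Eno2 is also a neuron marker of that list.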

How the data were processed

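RNA of 12 rat slice culture samples was measured on Affymetrix arrays. The submitters' processing notes name GCOS 1.4 and MAS5. The deposited values are a ratio per probe set, normalized by the authors per chip and per gene to the median of control replicates, per the design text in the labels, which also names a filter on present calls. Tested on the table, the median over all 12 arrays was 1 (within 0.0015) for 23723 probe sets and lower for 7319, while the median over the NT and IgG arrays was 1 for 3475. Values of 1 gene on different arrays can be compared, but not levels of different genes. The genome build is not given in the sources used here. The number of arrays limits the precision.

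Here 57 spike-in controls were left out. Ratios were taken as log2, the median of each array was subtracted, and probe sets with 1 gene symbol were averaged per gene. A further 7 probe sets with several symbols were left out of the 80 genes. Symbols came from the platform table, and all 89 probe sets matched by Entrez ID. limma 3.58.1 in R 4.3.3 fitted group means (lmFit, eBayes), two-sided, with Benjamini-Hochberg adjustment over all genes, and replicate numbers as an additive term for the comparisons of numbers. The scripts were tested on simulated data. Alternatives were the replicate number as a block, other normalizations, probe set rules, controls, weights, an eBayes trend, analysis of variance and leaving out each array. The members and gene lists were chosen with earlier results of these data known. Genes were named if they passed, had 1 of the 5 smallest p values per direction, or belonged to the isoform lists, with the 2 to 4 smallest p values of each other list described. The p-values set a change against the spread between these cultures. For groups, that spread includes differences between replicate numbers. For numbers, it is what remains after the group and number terms, over arrays of 4 different groups.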

Additional observations from a re-analysis of the deposited data

How the results depend on the processing

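No alternative gave a called gene between groups with limma. A count of calls was taken as kept if it stayed at 0 or within 1.5-fold. A median was kept if it moved by less than 1 SD of the array medians within groups or numbers. Its sign could still change. By these rules 426 of 439 counts and medians under other settings and 664 of 696 that left out 1 array were kept. Single genes kept their sign and side of the threshold in 501 of 525 and 872 of 960 comparisons, whatever their size. Between groups, where no gene was called, only the sign of a single gene could count. The causes of the moves below were not tested. The labels name nothing that arrays of 1 number share. In the data, 17 of 18 same-numbered pairs had deviations correlated over 0.1 (range of the 18, 0.0969 to 0.427), against -0.32 to 0.0944 for other pairs. Every array correlated best with its own number. This pattern comes from the data and not the design, and what the arrays of 1 number share was not tested. With the replicate number as a block, 0 respiratory chain genes and 0 genes in all passed in every group comparison, and the adjusted p of Cox6b2 was 0.218. On the values as deposited, the complex I median of 7B12 against 11C7 was -0.17. Taking the probe set of the smallest SD gave Ndufa9 -0.018 (7B12) and turned it to 0.078 (11C7) and 0.030 (both antibodies) against controls, Atp5if1 to 0.0067 (IgG against NT) and Atp5po to -0.11 (7B12 against 11C7). Without probe sets of a median under 1, replicate 3 against 1 gave 17 calls and a complex IV median of -0.057. The share of all genes called there was not counted. With NT and IgG arrays only, replicate 2 against 1 gave 0 calls and medians of 0.11 (complex II) and 0.18 (complex III), and replicate 3 against 1 gave 0 calls, 0.20 (complex II) and 0.18 (complex V). Within numbers, chosen after seeing the data, the median was 0.18 (11C7, number 1), -0.046 (11C7, number 3) and -0.11 (7B12, number 2). The design text's analysis of variance, unadjusted, picked 1 gene.

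Leaving out each array in turn gave these ranges. Cox8b, 7B12 against controls, ran from -0.26 to 1.51. Cox6a2 ran from -1.69 to 0.43 for 11C7 against controls and from -0.18 to 1.94 for 7B12 against 11C7. Atp5po, IgG against NT, ran from -0.086 to 0.72. IgG against NT medians ran from -0.063 to 0.055 over all 80 genes, -0.046 to 0.051 in complex I, -0.069 to 0.081 in complex III and -0.11 to 0.062 in complex V. The complex I median of 7B12 against 11C7 ran from -0.17 to -0.075. Calls ran from 0 to 7 for replicate 2 against 1, 1 to 11 for replicate 3 against 1 and 0 to 7 for the difference among the 3 numbers, which was called for 10 genes with all arrays. Medians ran from -0.0041 to 0.21 for complex IV in replicate 2 against 1 and from -0.10 to 0.071 for complex I in replicate 3 against 1.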

Other observations

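A further 7 probe sets carry several symbols, of which 1 fits the prefixes, and stayed outside the 80 genes. They cover Atp5mc1, Atp5mc2, Cox5a, Cox7a2, Uqcrb, Ndufs5 and Ndufa10, each beside a paralog or pseudogene that could share its signal. Tested among all probe sets with limma, none was called for 7B12 or 11C7 against the controls, with median changes of -0.04 and 0.04. In replicate 3 against 1, 6 of 7 were above 0, with a median of 0.30, and 1 was called, against 15.5% of probe sets. That was the probe set shared by Ndufa10 and Ndufa10l1, at -0.72 ± 0.10 (SE) with an adjusted p of 0.009. It read -0.77, -0.54, -0.46 and -0.48 in replicate 3 of 7B12, 11C7, IgG and NT, and 0.10, 0.25, 0.14 and 0.16 in replicate 1. It was also called in replicate 3 against 2, at -0.58 ± 0.10 with an adjusted p of 0.0443, against 1.95% of probe sets. In replicate 2 against 1 the called probe set, against 14.9%, was that of Atp5mc1 and Atp5mc1l1, which encode the c ring of ATP synthase, at 0.58 ± 0.15 with an adjusted p of 0.0409.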
